A study of Mus musculus and Mus musculus
Rattus norvegicus with 30 samples.

Results

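The genes described here are 10 members of the fibroblast growth factor (FGF) pathway: the ligands Fgf4 and Fgf8, the receptors Fgfr1, Fgfr2, Fgfr3 and Fgfr4, the response gene Etv4, and the feedback inhibitors Spry2, Spry4 and Spred1. They were listed by name, with earlier results of these data known, and all 10 were found among the 19919 genes counted in mouse embryonic stem cells (mESCs), the 34923 counted for the mouse genome of RMES cells and the 25245 counted for their rat genome. The study asked whether the transcription factor Cdx2 acts differently in mouse and rat, with RNA-seq, ATAC-seq (open chromatin) and ChIP-seq (Cdx2 binding). RNA-seq of mESCs covered 10 groups of 2 libraries. These were cells labelled WT, cells expressing mouse Cdx2 (mCdx2-OE), cells expressing rat Cdx2 (rCdx2-OE), and cells expressing 7 mutants of rat Cdx2. The mutants held the mouse amino acid change at site 1 (R1), 2 (R2), 3 (R3) or their combinations (R12, R13, R23 and R123). The constructs were Flag-tagged, delivered by lentivirus as stable lines and switched on with doxycycline. RMES cells are a fusion of a mouse and a rat haploid ESC, and gave 2 WT libraries, 1 mCdx2-OE library and 1 rCdx2-OE library, each counted on both genomes. All cells were maintained in a medium with LIF, the GSK3 inhibitor Chir99021 and the MEK inhibitor PD0325901, a drug that acts within the FGF pathway. Whether the medium was the same in every group at collection is not given in the sources used here, and neither is how many clones a line holds, nor that replicates came from separate cultures, so p-values measure the spread between these libraries.

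FGF ligands bind receptor tyrosine kinases of the Fgfr family and signal through Ras, Raf, MEK and ERK to the nucleus. ERK activity turns on transcription factors of the Etv family and, as negative feedback, the Sprouty (Spry) and Spred proteins, which dampen signalling to ERK. In the early embryo Fgf4 is made by the pluripotent cells, Fgfr2 is a receptor of the trophectoderm, and Cdx2 is the master regulator of the trophoblast lineage, whose stem cells depend on FGF.

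The binding of Cdx2 near these genes was read from the ChIP-seq peaks within 30 kb of their RefSeq gene starts. Below are the central 201 bases of 5 of the 18 mESC peaks, shown on the plus strand of GRCm38. The Spry2 peak held the most reads of the 18, the Fgfr2 peak lay in an intron of the gene with the largest rise, the Spred1 peak overlapped a peak of RMES cells, and the Fgfr1 and Fgf8 peaks overlapped chromatin that opened with mCdx2. Capitals mark the Cdx2-type words searched on both strands, CATAAA and CAATAAA, neither of which contains the other, printed as their reverse complement where they lie on the minus strand.

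Spry2 upstream peak, chr14:105900667-105900867: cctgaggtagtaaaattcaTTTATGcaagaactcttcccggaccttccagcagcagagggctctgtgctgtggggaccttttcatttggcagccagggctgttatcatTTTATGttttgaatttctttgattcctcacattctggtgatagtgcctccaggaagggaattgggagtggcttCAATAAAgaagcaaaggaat
Fgfr2 intron peak, chr7:130264739-130264939: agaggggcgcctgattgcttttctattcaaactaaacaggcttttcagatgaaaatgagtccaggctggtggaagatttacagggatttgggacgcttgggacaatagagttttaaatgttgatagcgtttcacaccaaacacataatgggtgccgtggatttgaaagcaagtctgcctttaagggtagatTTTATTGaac
Spred1 intron peak, chr2:117132776-117132976: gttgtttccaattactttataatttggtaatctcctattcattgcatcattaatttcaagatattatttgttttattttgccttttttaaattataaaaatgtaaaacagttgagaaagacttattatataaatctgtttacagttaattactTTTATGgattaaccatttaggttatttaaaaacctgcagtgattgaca
Fgfr1 upstream peak, chr8:25507874-25508074: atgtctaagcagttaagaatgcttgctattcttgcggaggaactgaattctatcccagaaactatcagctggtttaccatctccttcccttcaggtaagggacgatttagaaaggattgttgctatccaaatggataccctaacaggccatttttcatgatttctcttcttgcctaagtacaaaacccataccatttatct
Fgf8 downstream peak, chr19:45734700-45734900: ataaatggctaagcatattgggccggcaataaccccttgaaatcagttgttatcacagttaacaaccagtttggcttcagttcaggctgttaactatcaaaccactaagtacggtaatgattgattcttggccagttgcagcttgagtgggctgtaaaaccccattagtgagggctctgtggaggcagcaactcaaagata

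The Spry2 peak held 3 of these words, the Fgfr2 and Spred1 peaks 1 each, and the Fgfr1 and Fgf8 peaks none. Such a word stood in 9 of the 18 peaks, 50%, against 56.4% of all 91665 mESC Cdx2 peaks, 14.1% of 122350 ATAC peaks and 57.7% of 74650 RMES Cdx2 peaks, all over 201 bases. A match is a description of the letters and not a shown site.

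Libraries held 12698443 to 94686029 gene counts in mESCs, where the 2 WT libraries were the deepest and induced cells had at most 24315929, and 29453412 to 41418817 per allele in RMES cells. The ATAC-seq libraries held 6109353 to 8277850 counts in peaks, and the ChIP-seq libraries 5550846 to 6223794 in mESCs and 3387074 to 4357448 on the mouse genome of RMES cells. Cdx2 stood at 1.36 and 1.21 CPM (counts scaled to library size) in the WT mESC libraries, at 97.9 and 127 CPM in mCdx2-OE and at 70.4 and 67.0 CPM in rCdx2-OE. In the RMES libraries labelled WT it was already at 129 and 127 CPM on the mouse allele and 453 and 440 CPM on the rat allele, against 968 CPM on the mouse allele of mCdx2-OE and 880 CPM on the rat allele of rCdx2-OE. The other allele was then at 47.2 CPM (rat, mCdx2-OE) and 4.45 CPM (mouse, rCdx2-OE), below the libraries labelled WT. Summed pluripotency markers were at 4490 to 4530 CPM in WT mESCs, 3410 to 3450 CPM in mCdx2-OE and 3100 to 3140 CPM in rCdx2-OE, and summed trophoblast markers at 156 to 158, 586 to 624 and 729 to 814 CPM. Of the 8 pluripotency markers, 2 were called lower with mCdx2 and 3 with rCdx2, and none higher. Of the 7 trophoblast markers tested, 5 were called higher with each protein, and 1 was called lower with rCdx2. A call was an adjusted p under 0.05 and a 2-fold change. Of all genes, 18.4% were called higher and 15% lower with mCdx2, and 19% and 15.4% with rCdx2. Fibroblast markers summed to 33.5 to 34 CPM in WT and to 1.28 to 4.46 CPM in the induced groups. In mCdx2-OE, 4 of the 5 fibroblast markers tested were called lower, against 15% of all genes, and none higher. Col3a1 had no read there. Primitive endoderm markers, a low sum of 6 genes, were at 3.61 to 3.77 CPM in WT, 12.7 to 14.4 CPM in mCdx2-OE and 14.4 to 14.7 CPM in rCdx2-OE. Of the 6, 4 and 5 were called higher, among them Gata6 (log2 3.12 and 3.18), and none lower. The shares of all genes called higher were 18.4% and 19%. Posterior mesoderm markers were at 3.78 to 4.42 CPM in WT, 1.17 to 1.82 CPM in mCdx2-OE and 1.38 to 1.47 CPM in rCdx2-OE. In each, 2 of the 4 tested were called lower and none higher, against 15% and 15.4% of all genes called lower. The part of these differences in the results below was not tested, and in bulk libraries fewer cells of a type and less RNA per cell cannot be told apart.

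Per length, the WT mESC libraries held Fgf4 and Spry2 highest, at 68.7 ± 1.83 and 52.9 ± 0.457 RPKM (mean ± SD, n = 2). Etv4 followed at 31.9 ± 0.634 RPKM, Fgfr1 at 14.3 ± 0.235 RPKM, Spred1 at 10.3 ± 0.0704 RPKM and Spry4 at 5.69 ± 0.337 RPKM. Fgfr1 was thus the only receptor of the family at more than 1 RPKM. Fgfr2, Fgfr4, Fgf8 and Fgfr3 stood at 0.632, 0.389, 0.147 and 0.126 RPKM, and the values of Fgf8 and Fgfr3 lay within the spread of each other.

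The response gene Etv4 and the feedback inhibitors were lower, and Fgfr2 was higher, in mESCs with either Cdx2 protein. With mCdx2, 5 of the 9 members tested passed an adjusted p of 0.05 and a 2-fold change, 2 higher and 3 lower, against 18.4% of all 16000 genes called higher and 15% called lower. With rCdx2, 6 of 9 passed, 2 higher and 4 lower, against 19% and 15.4% of all genes. At any fold 7 and 8 of the 9 members passed, where 69.7% and 70.6% of all genes did. The median log2 fold change of the members was -0.24 with mCdx2 and -0.32 with rCdx2, and that of all genes -0.03 and -0.04. Both comparisons use the same 2 WT libraries.

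**Figure D1:**
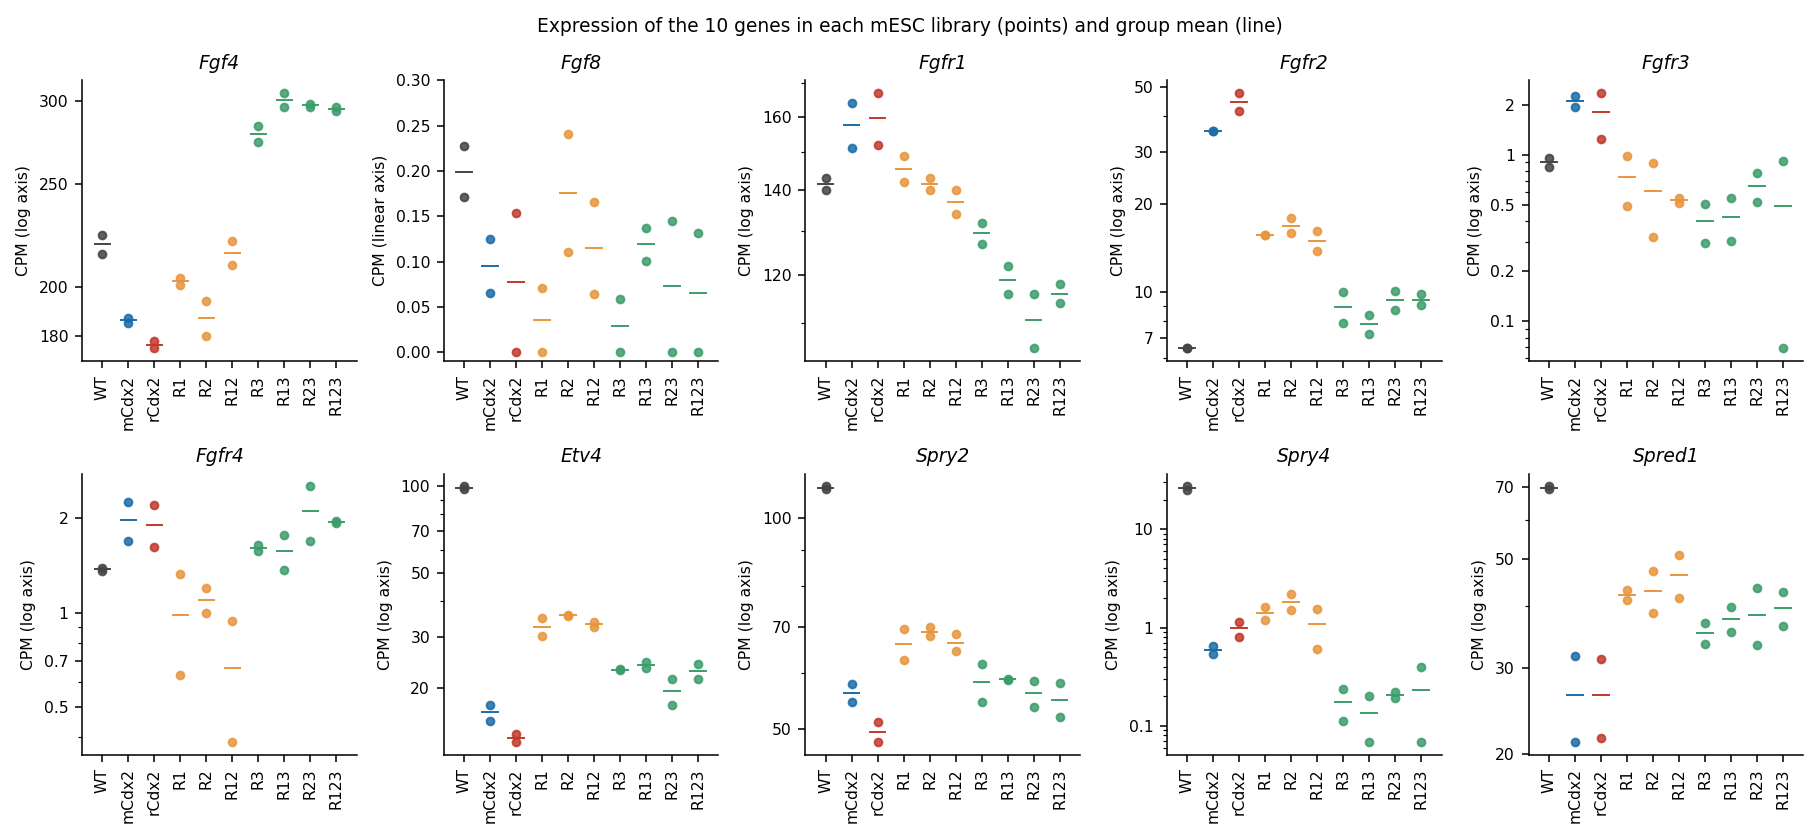
CPM of the 10 genes in the 20 mESC libraries, on a log axis except for Fgf8, which has a linear axis. Points are libraries and short lines group means. Etv4, Spry2, Spry4 and Spred1 are highest in the 2 WT libraries and Fgfr2 lowest there, and the 8 libraries with site 3 changed (green) stand apart from the other 6 mutant libraries (orange) for Fgf4, Fgfr2 and Spry4.

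Of the ligands, Fgf4, which supports trophoblast stem cells and lies at chr7:144861386-144865245, was at 215 and 224 CPM in WT, 185 and 187 CPM in mCdx2-OE and 175 and 178 CPM in rCdx2-OE. The groups did not overlap, but the differences were small, at -0.24 ± 0.0608 (log2 fold change ± SE, adjusted p = 0.00231) and -0.32 ± 0.0608 (adjusted p = 0.000224), neither of which reached 2-fold. Fgf8, a ligand of the gastrulating embryo at chr19:45736491-45742941, had 0 to 16 reads in each mESC library, a depth at which it could not be tested.

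Among the receptors, Fgfr2 (chr7:130162451-130266808) was at 6.45 and 6.46 CPM in WT, 35.5 and 35.4 CPM in mCdx2-OE and 41.5 and 47.7 CPM in rCdx2-OE. Every mCdx2-OE and rCdx2-OE library was far above both WT libraries. The rise was 2.46 ± 0.125 with mCdx2 (adjusted p = 6.55e-11) and 2.78 ± 0.125 with rCdx2 (adjusted p = 1.42e-11) on the log2 scale. Fgfr3 (chr5:33721724-33737068) went from 0.85 and 0.959 CPM in WT to 2.26 and 1.95 CPM in mCdx2-OE and 2.35 and 1.25 CPM in rCdx2-OE. The groups did not overlap and both contrasts passed, at 1.22 ± 0.434 (adjusted p = 0.0197) and 1.04 ± 0.439 (adjusted p = 0.0431). These calls rest on 144, 84 and 78 reads per group and are weak: with DESeq2 the adjusted p was 0.0589 and 0.128, without the first mCdx2-OE library 0.121, and without the first rCdx2-OE library 0.557, with a log2 fold change of 0.45. Leaving out the first WT library gave 0.0771 for mCdx2 and 0.131 for rCdx2, leaving out the second gave 0.0852 for rCdx2, and keeping all low counts gave 0.0569 for rCdx2. With the replicate number as a block within mCdx2-OE and rCdx2-OE and within the mutants, the rCdx2 value was 0.97 (adjusted p = 0.0247), under 2-fold, and 5 members were called.

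Fgfr1 (chr8:25518759-25575718), the main FGF receptor of these cells, stayed near its WT level. It was at 143 and 140 CPM in WT, 164 and 151 CPM in mCdx2-OE and 167 and 152 CPM in rCdx2-OE, a difference of 0.16 ± 0.0718 (adjusted p = 0.062) and 0.17 ± 0.0718 (adjusted p = 0.0415). The second of these did not reach 2-fold and was lost without either WT library (adjusted p of 0.103 and 0.175), without the first rCdx2-OE library (0.356) and with all low counts kept (0.0826). Fgfr4 (chr13:55152818-55168759) was at 1.36 and 1.39 CPM in WT, 2.26 and 1.69 CPM in mCdx2-OE and 1.62 and 2.2 CPM in rCdx2-OE. Its differences did not pass (adjusted p = 0.117 and 0.213).

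Etv4, an ETS transcription factor induced by FGF signalling (chr11:101769747-101785310), was at 97.6 and 100 CPM in WT, 17.5 and 15.4 CPM in mCdx2-OE and 13 and 13.8 CPM in rCdx2-OE. All induced libraries were well below both WT libraries, and Etv4 fell 5.99-fold with mCdx2 (log2 -2.58 ± 0.107, adjusted p = 5.65e-12) and 7.42-fold with rCdx2 (log2 -2.89 ± 0.109, adjusted p = 1.7e-12).

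Spry4, a Sprouty inhibitor of signalling to ERK (chr18:38586247-38601347), showed the largest change of the members. It was at 25.0 and 27.2 CPM in WT, 0.544 and 0.65 CPM in mCdx2-OE and 1.15 and 0.806 CPM in rCdx2-OE. The mCdx2-OE and rCdx2-OE libraries held only 10 to 30 reads each. The fall was 44-fold with mCdx2 (log2 -5.46 ± 0.299, adjusted p = 1.64e-10) and 25.4-fold with rCdx2 (log2 -4.67 ± 0.274, adjusted p = 3.5e-10). Spry2 (chr14:105891947-105896819), a second Sprouty, was lowered less, from 110 and 111 CPM in WT to 58.0 and 54.6 CPM in mCdx2-OE and 51.1 and 47.9 CPM in rCdx2-OE. Its groups did not overlap, and with a log2 fold change of -0.97 ± 0.0818 for mCdx2 (adjusted p = 2.73e-08) it fell just short of 2-fold, while rCdx2 passed at -1.15 ± 0.0825 (adjusted p = 3.49e-09). Spred1 (chr2:117121071-117182279), which restrains Ras and Raf, was at 70.1 and 69.4 CPM in WT, 21.2 and 31.7 CPM in mCdx2-OE and 21.6 and 31.3 CPM in rCdx2-OE. It fell 2.66-fold (log2 -1.41 ± 0.186, adjusted p = 4.91e-06) and 2.67-fold (log2 -1.42 ± 0.187, adjusted p = 4.62e-06), although the mCdx2-OE and rCdx2-OE libraries spread from 21.2 to 31.7 CPM.

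The direct comparison of mCdx2 with rCdx2 called none of the 9 members with edgeR's quasi-likelihood test, where 3 of 16000 genes, 0.0187%, were called and 857 had an unadjusted p under 0.05. The difference (mCdx2 minus rCdx2, log2) was largest for Spry4, at -0.80 ± 0.441 with an unadjusted p of 0.0898. At an unadjusted p under 0.05 stood Fgfr2, at -0.33 ± 0.119, Etv4, at 0.31 ± 0.113, and Spry2, at 0.18 ± 0.0839, all with an adjusted p of 0.752 or more. Fgf4 differed by 0.08 ± 0.0613, Fgfr1 by -0.02 ± 0.0724 and Spred1 by 0.01 ± 0.194. For Spry4 and Fgfr3, whose SE were 0.441 and 0.457, differences near 2-fold were not detectable at this depth.

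Across all 9 constructs, each of the 9 members tested differed (joint test of edgeR, adjusted p from 2.45e-10 for Fgfr2 to 0.0214 for Fgfr4), against 56.9% of all genes. This test does not say which constructs differ, and it spans the mutants and the 2 intact proteins, whose libraries form separate sets. Fgfr3, for one, had means of 2.1 and 1.8 CPM in mCdx2-OE and rCdx2-OE and of 0.4 to 0.74 CPM in the mutants. Against WT, the 7 mutants gave 19 calls in 63 member and mutant pairs, 3 higher and 16 lower, against 12.1% and 13.8% of pairs over all genes. All 7 mutants had lower Spry4 and Etv4, the latter at 17.5 to 35.9 CPM in the 14 mutant libraries. R1, R2 and R12 had higher Fgfr2, at log2 1.28, 1.38 and 1.21, and Spry2 passed 2-fold only in R123, at -1.0. Fgfr4 was called lower in R12 (-1.01, adjusted p = 0.0256), a call lost without the first R12 library (-0.55, adjusted p = 0.282) and without either WT library (adjusted p of 0.0501 and 0.063). Same-numbered mutant libraries deviated together: in all 7 mutants the first library held more Cdx2 (61.9 to 147 CPM) than the second (37.2 to 68.8 CPM) and more Spred1. With the replicate number as a block within the mutants, and within mCdx2-OE and rCdx2-OE, there were 21 calls, with Fgfr3 added as lower in R3 (-1.17, adjusted p = 0.0486) and R13 (-1.18, adjusted p = 0.0467). Spred1 lay between the WT and the mCdx2-OE libraries in every mutant library, at 33.4 to 50.9 CPM.

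In the additive fit over rCdx2-OE and the 7 mutants, members were called for change 3 only. The one construct without any change in this fit, rCdx2-OE, lies outside the set of the mutants, and its offset enters the fit. Fgfr2, for one, had a mean of 44.6 CPM in rCdx2-OE and of 15.0 to 16.9 CPM in R1, R2 and R12. With edgeR no gene at all, 0%, was called for change 1 or for change 2, where 1854 and 1473 genes had an unadjusted p under 0.05, and DESeq2 gave no member either. The values of the members for change 1 ran from -0.64 (Fgfr3) to 0.30 (Etv4) and for change 2 from -0.43 (Fgfr3) to 0.28 (Spry4). For change 3, 37.5% of 14394 genes were called and 5 of the 9 members, 2 higher and 3 lower.

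Fgf4 was at 180 to 221 CPM in the 6 mutant libraries without change 3 and at 274 to 305 CPM in the 8 with it. All libraries with the change lay above all others, including WT at 215 and 224 CPM, and the difference was 0.58 ± 0.0382 (log2, adjusted p = 5.2e-08). Spry4 was at 0.609 to 2.17 CPM without the change and at 0.0687 to 0.392 CPM with it. The latter libraries had 1 to 6 reads each, no value overlapped, and the difference was -2.77 ± 0.33 (adjusted p = 1.08e-05). Fgfr2 was at 13.8 to 17.9 CPM without and 7.21 to 10.1 CPM with the change in the mutant libraries, again with no overlap. Its difference of -1.26 ± 0.215 (adjusted p = 0.000273) is from the fit that also holds rCdx2-OE, at a mean of 44.6 CPM. Fgfr1 was at 134 to 149 CPM and 105 to 132 CPM (-0.30 ± 0.0423, adjusted p = 4.45e-05). Fgfr4, at 0.387 to 1.33 and 1.37 to 2.53 CPM, was called higher (0.66 ± 0.244, adjusted p = 0.0426), but leaving out any of 9 single libraries of R1, R2, R12, R13, R23 or R123 raised its adjusted p to between 0.0639 and 0.0837.

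R123 carries all 3 mouse changes, yet for Fgf4 and Fgfr2 its libraries lay farther from mCdx2-OE than rCdx2-OE did. Fgf4 was at 293 and 296 CPM in R123 against 185 and 187 CPM in mCdx2-OE, and Fgfr2 at 9.08 and 9.85 CPM against 35.5 and 35.4 CPM. Without rCdx2-OE, an alternative chosen after the data were seen, 8 members passed for change 3, with Etv4 at -0.61, Spry2 at -0.26 and Spred1 at -0.19 added and Fgfr2 at -0.84. Among the mutants Etv4 was at 30.2 to 35.9 CPM without the change and 17.5 to 24.6 CPM with it, and Spry2 at 62.8 to 69.8 and 51.9 to 61.9 CPM, neither with any overlap. In the fit with rCdx2-OE, Etv4 (-0.32 ± 0.173, adjusted p = 0.16) passed once either rCdx2-OE library was left out (0.0251 and 0.0456), Spry2 once the second was (0.0369), and Fgfr3 (-0.87 ± 0.402, adjusted p = 0.0997) once the second R123 library was (0.0218). Cdx2 itself was lower with change 3 (-0.74 ± 0.264, adjusted p = 0.0358), at 60.6 to 147 CPM in the 6 mutant libraries without it and 37.2 to 94.4 CPM in the 8 with it. Pluripotency markers summed to 3960 to 4710 CPM without and 4540 to 5160 CPM with the change, and trophoblast markers to 214 to 290 and 161 to 182 CPM. The level of Cdx2, the stable line and the amino acid change cannot be told apart in this design. Same-numbered libraries deviated together within the mutants and within mCdx2-OE and rCdx2-OE, but not between these 2 sets. A difference of rCdx2-OE or mCdx2-OE from the mutants therefore cannot be told apart from one between the sets.

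**Figure D2:**
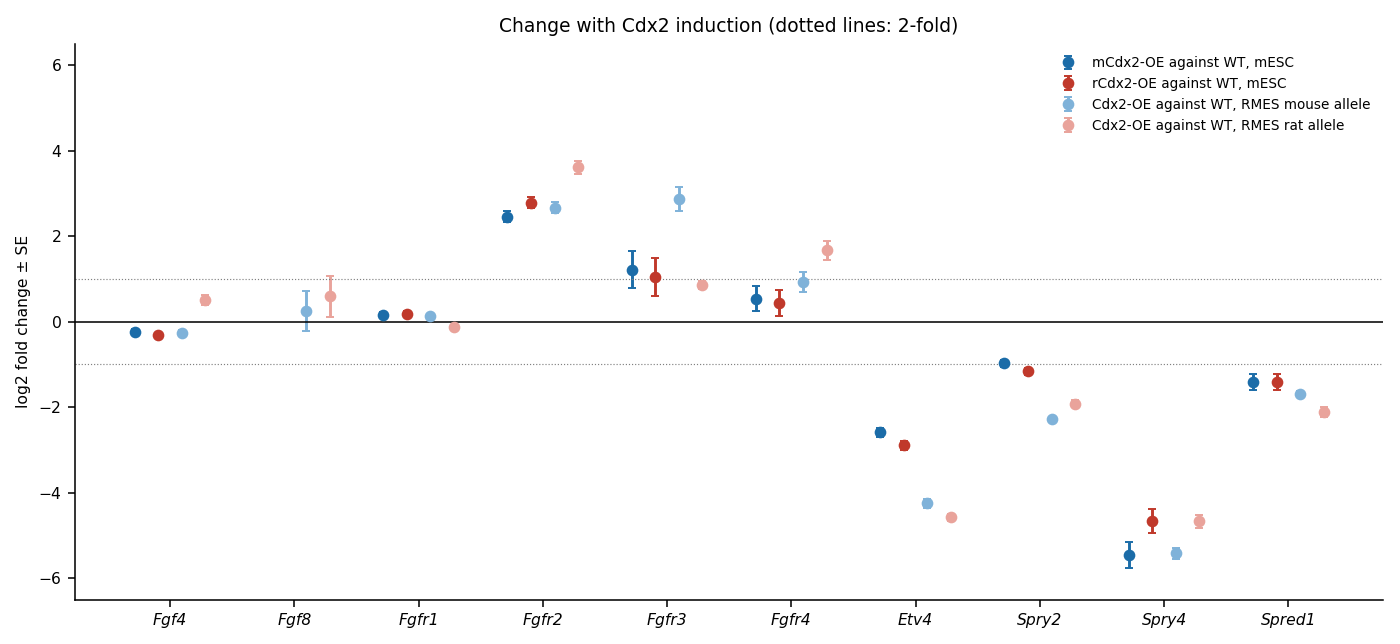
Log2 fold change with Cdx2 induction, with its SE, of the 10 genes in 4 comparisons against WT, of which mCdx2-OE and rCdx2-OE mESCs share WT libraries and the 2 RMES alleles share all libraries. Dotted lines mark 2-fold. Etv4, Spry2, Spry4 and Spred1 lie below 0 and Fgfr2 and Fgfr3 above 0 in all 4, and Fgf8 has no value in mESCs.

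In RMES cells the same 4 genes fell on both alleles and Fgfr2 rose on both. Taking mCdx2-OE and rCdx2-OE as 2 induced libraries, 6 of 10 members were called on the mouse allele, 2 higher and 4 lower, against 28.3% and 16.1% of 16887 genes. On the rat allele 6 of 10 were called, 2 higher and 4 lower, against 28.3% and 14.2% of 14627 genes. At any fold 8 members passed on each allele, against 81.9% and 82.5% of all genes, and the median log2 fold change was -0.07 and 0.19 for the members and 0.08 and 0.07 for all genes. Pluripotency markers summed to 7050 to 7140 CPM on the mouse allele of the libraries labelled WT and to 2790 and 2740 CPM after induction, and trophoblast markers to 165 to 173 CPM before and 958 and 1100 CPM after. The sum of the posterior mesoderm markers fell there from 23.6 to 24.5 CPM to 1.33 and 1.55 CPM, with T at -8.48 and Evx1 at -7.96 (log2). Of the 4 posterior mesoderm markers tested there, 2 were called lower and 1 higher. Primitive endoderm markers were at 4.74 to 6.38 CPM before and 11.4 and 11.8 CPM after, with 4 of the 6 called higher and none lower. On the rat allele the pluripotency sum was at 4180 to 4250 CPM before and 1560 and 1450 CPM after, the trophoblast sum at 302 to 321 CPM before and 971 and 1070 CPM after, the primitive endoderm sum at 7.39 to 7.74 CPM before and 11.3 and 13.2 CPM after, and the posterior mesoderm sum under 1 CPM throughout. Of the 6 primitive endoderm markers, 2 were called higher and 1 lower on the rat allele. Their median log2 fold change there was 0.08, near the 0.07 of all genes. Fibroblast markers summed to 22.3 to 27.1 CPM on the mouse allele before and 7.91 and 10.9 CPM after, and on the rat allele to 20.5 to 26.5 CPM before and 23.7 and 30.2 CPM after. These sums mix directions: 3 of the 5 tested were called lower and 1 higher on the mouse allele, and 2 of the 4 tested lower and 1 higher on the rat allele. The part of these markers in the members' changes was not tested.

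Spry4 was at 158 and 166 CPM on the mouse allele of the libraries labelled WT, 4.72 CPM in mCdx2-OE and 2.89 CPM in rCdx2-OE. On the rat allele it was at 87.6 and 93.4 CPM, 4.59 CPM and 2.53 CPM. Both alleles were far lower after induction, with log2 fold changes of -5.41 ± 0.127 (adjusted p = 3.3e-12) and -4.67 ± 0.146 (adjusted p = 4.49e-13). Etv4 went from 144 and 134 CPM to 8.63 and 5.98 CPM on the mouse allele and from 153 and 152 CPM to 6.99 and 5.8 CPM on the rat allele. It fell 19-fold and 23.9-fold, and the induced libraries did not come near those labelled WT.

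Spry2 went from 210 and 202 CPM to 44.2 and 40.4 CPM on the mouse allele and from 132 and 138 CPM to 39.6 and 31.9 CPM on the rat allele, a fall of 4.87-fold and 3.77-fold. Spred1 went from 101 and 107 CPM to 34.9 and 29.8 CPM and, on the rat allele, from 22.6 and 24.7 CPM to 5.92 and 5.04 CPM, a fall of 3.22-fold and 4.32-fold. For both genes the induced libraries lay below those labelled WT on each allele. Over these 4 genes the adjusted p ranged from 3.3e-12 (Spry4) to 5.5e-10 (Spred1) on the mouse allele and from 1.44e-15 (Etv4) to 3.01e-10 (Spred1) on the rat allele.

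Fgfr2 went from 3.36 and 4.27 CPM to 25.1 and 23.5 CPM on the mouse allele, and from 1.5 and 1.73 CPM to 19.2 and 20.5 CPM on the rat allele. This rise was 6.34-fold (adjusted p = 1.06e-09) and 12.2-fold (adjusted p = 9.53e-12), with no overlap. Fgfr3 rose 7.33-fold on the mouse allele, from 0.524 and 0.39 CPM to 2.98 and 3.73 CPM (adjusted p = 1e-06), where the libraries labelled WT held 17 and 14 reads. Its rat allele was already at 14.6 CPM in both libraries labelled WT and at 25.6 and 27 CPM after induction, a rise of 1.8-fold that did not reach the 2-fold threshold. Fgfr4 was called on the rat allele, from 1.32 and 1.73 CPM to 4.53 and 5.22 CPM (3.18-fold, adjusted p = 4.44e-06), and on the mouse allele it went from 1.42 and 1.39 CPM to 2.96 and 2.42 CPM, 1.91-fold.

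Fgfr1, Fgf4 and Fgf8 changed little. Fgfr1 differed by 0.13 ± 0.0563 on the mouse allele (adjusted p = 0.0513) and -0.13 ± 0.0615 on the rat allele (adjusted p = 0.0593). Fgf4 fell slightly on the mouse allele, from 99.4 and 96.9 CPM to 75.6 and 88.3 CPM (log2 -0.26 ± 0.0696, adjusted p = 0.00392, and 0.103 or 0.0724 without the first or second library labelled WT), and rose on the rat allele, from 12.1 and 10.8 CPM to 15.2 and 17.4 CPM (log2 0.51 ± 0.117, adjusted p = 0.000877). Fgf8 had 6 to 24 reads per library and allele and differed by 0.25 ± 0.459 and 0.59 ± 0.475, within its error.

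**Figure D3:**
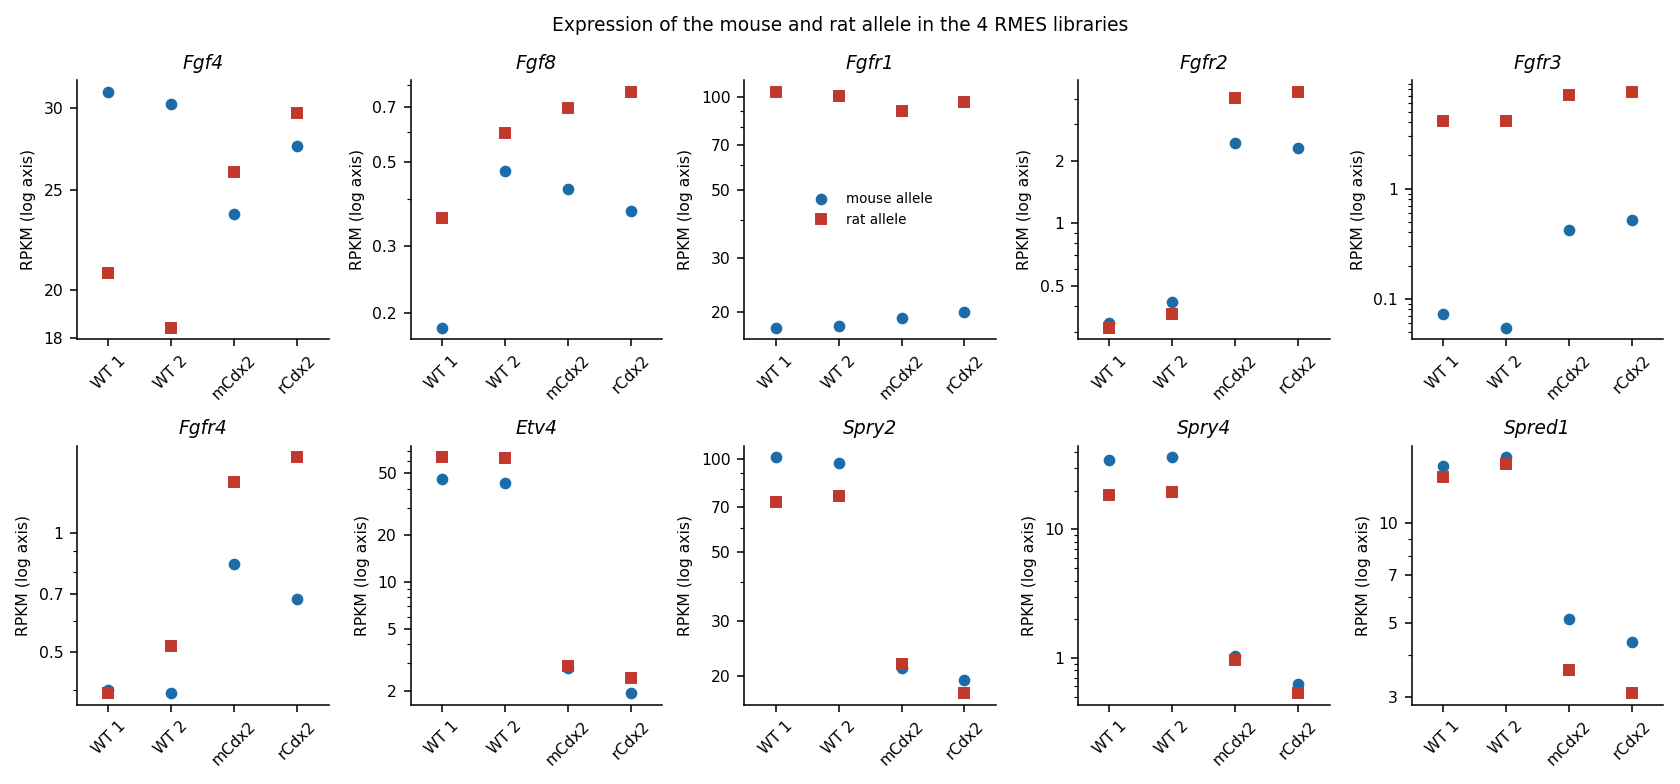
RPKM of the mouse allele (circles) and the rat allele (squares) of the 10 genes in the 4 RMES libraries, on log axes. Etv4, Spry2, Spry4 and Spred1 drop on both alleles after induction, Fgfr2 rises on both, and the rat allele of Fgfr3 starts far above the mouse allele, at 4.07 against 0.0545 to 0.0732 RPKM.

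The response differed between the alleles for 9 of the 10 members (interaction test of edgeR with the library as a block), where 62.1% of 13605 genes were called. The difference of the log2 fold changes, rat minus mouse, was -2.0 ± 0.272 for Fgfr3 (adjusted p = 9.02e-07), whose rise was smaller on the rat allele. It was 0.97 ± 0.208 for Fgfr2 (adjusted p = 0.000295), 0.80 ± 0.0859 for Fgf4 (adjusted p = 2.49e-08) and 0.77 ± 0.116 for Spry4 (adjusted p = 4.08e-06), which therefore fell less on the rat allele. Spry2 (0.39 ± 0.053) also fell less on the rat allele, and Spred1 (-0.40 ± 0.1) and Etv4 (-0.30 ± 0.0923) fell more. Fgfr1 differed by -0.24 ± 0.0474, and Fgf8 by 0.35 ± 0.736, which did not pass. The Etv4 call was lost without the mCdx2-OE library (-0.14, adjusted p = 0.443). That of Fgfr4 (0.76 ± 0.328, adjusted p = 0.0475) was lost without the rCdx2-OE library (0.286), without either library labelled WT (0.268 and 0.0645) and with DESeq2 (0.233).

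Levels of the alleles compare less safely than their responses, since the counted length of the rat gene model was 0.183 of the mouse length for Fgf4, 0.241 for Spred1, 0.343 for Fgfr1 and between 0.456 and 1.04 for the others. Per length, Fgf4 was higher on the mouse allele in the libraries labelled WT (31.1 and 30.3 against 20.8 and 18.4 RPKM) and close to equal after induction (23.7 and 27.6 against 26.0 and 29.7 RPKM). Fgfr1 was higher on the rat allele in all 4 libraries, at 90.2 to 104 against 17.8 to 20 RPKM. The part of the annotation in such level differences was not tested.

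Compared with mESCs, the response of the mouse allele in RMES cells differed for 3 of the 10 members, 1 higher and 2 lower, where 53.2% of 17912 genes differed. The fall was larger in RMES cells for Etv4 (a difference of -1.56 ± 0.206, adjusted p = 5.65e-05) and Spry2 (-1.26 ± 0.123, adjusted p = 4.91e-06), and the rise was larger for Fgfr3 (1.70 ± 0.41, adjusted p = 0.0043). For Spry4, Fgfr2 and Fgf4 the difference was -0.44 ± 0.328, 0.00 ± 0.581 and -0.02 ± 0.103, none of which passed, although Spry4 did without the mCdx2-OE RMES library (-0.83, adjusted p = 0.0322). Before induction Spry4 was at 158 and 166 CPM in the RMES libraries labelled WT against 25.0 and 27.2 CPM in WT mESCs, in separate tables and cells.

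Chromatin near the genes was compared between 1 WT and 1 mCdx2-OE library of mESCs, so the values below have no replicate check and their intervals cover counting error only. Within 30 kb of the gene starts lay 96 ATAC peaks, of which 3 opened over 2-fold and 15 closed, against 9.56% and 14.3% of all 122350 peaks. These counts depend on the scaling of the libraries to a common total: without it 15 opened and 6 closed. A gene had an opened peak in 3 of 10 cases, against 35.7% of 16978 genes, and a closed peak in 4 of 10, against 49.5%.

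The strongest opening was an intergenic peak at chr8:25507792-25508208, -10759 bases from the Fgfr1 start (negative is upstream), with 5.89 scaled reads in WT and 53.0 in mCdx2-OE. This ratio of 9 (95% interval 3.65 to 28.7, exact binomial) was found at the Cdx2 peak printed above, whereas Fgfr1 itself stayed near its WT level. The Fgf8 peak printed above, 8032 bases downstream of the gene start, opened from 8.24 to 35.6 scaled reads (ratio 4.32, 1.92 to 11.4), while Fgf8 had 0 to 16 reads in RNA. In Fgfr2, an intron peak at chr7:130252900-130254191 went from 63.6 to 157 scaled reads (ratio 2.47, 1.82 to 3.42) and overlapped no Cdx2 peak. The peak over the Fgfr2 Cdx2 site printed above was open before and after, at 245 and 317 scaled reads (ratio 1.3, 1.09 to 1.54).

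At Fgf4, 8 of 17 ATAC peaks closed, more than at any other member, and none overlapped a Cdx2 peak. The peak at its start (chr7:144859677-144862243) went from 279 to 119 scaled reads (ratio 0.427, 0.343 to 0.529), and one over its 3′ end (chr7:144863392-144865341) from 244 to 75.6 (ratio 0.31, 0.239 to 0.4). Beside this, its RNA differed by only -0.24 on the log2 scale in mCdx2-OE. At Fgfr1, 3 peaks in the gene body closed, with ratios of 0.305 to 0.422, and at Spry4 3 closed, with ratios of 0.272 to 0.481, one of them in its intron and one in an intron of Arhgap26. At Spry2, 1 of 10 closed. The peak nearest the start of Etv4 stayed within 2-fold, at 338 and 231 scaled reads (ratio 0.684), and none of the 3 peaks at Etv4 or the 3 at Spred1 was called opened or closed. At Spred1, the peak at the Cdx2 peak -7289 bases from the start held 7.07 and 29.6 scaled reads, a total just under the minimum of 40.

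**Figure D4:**
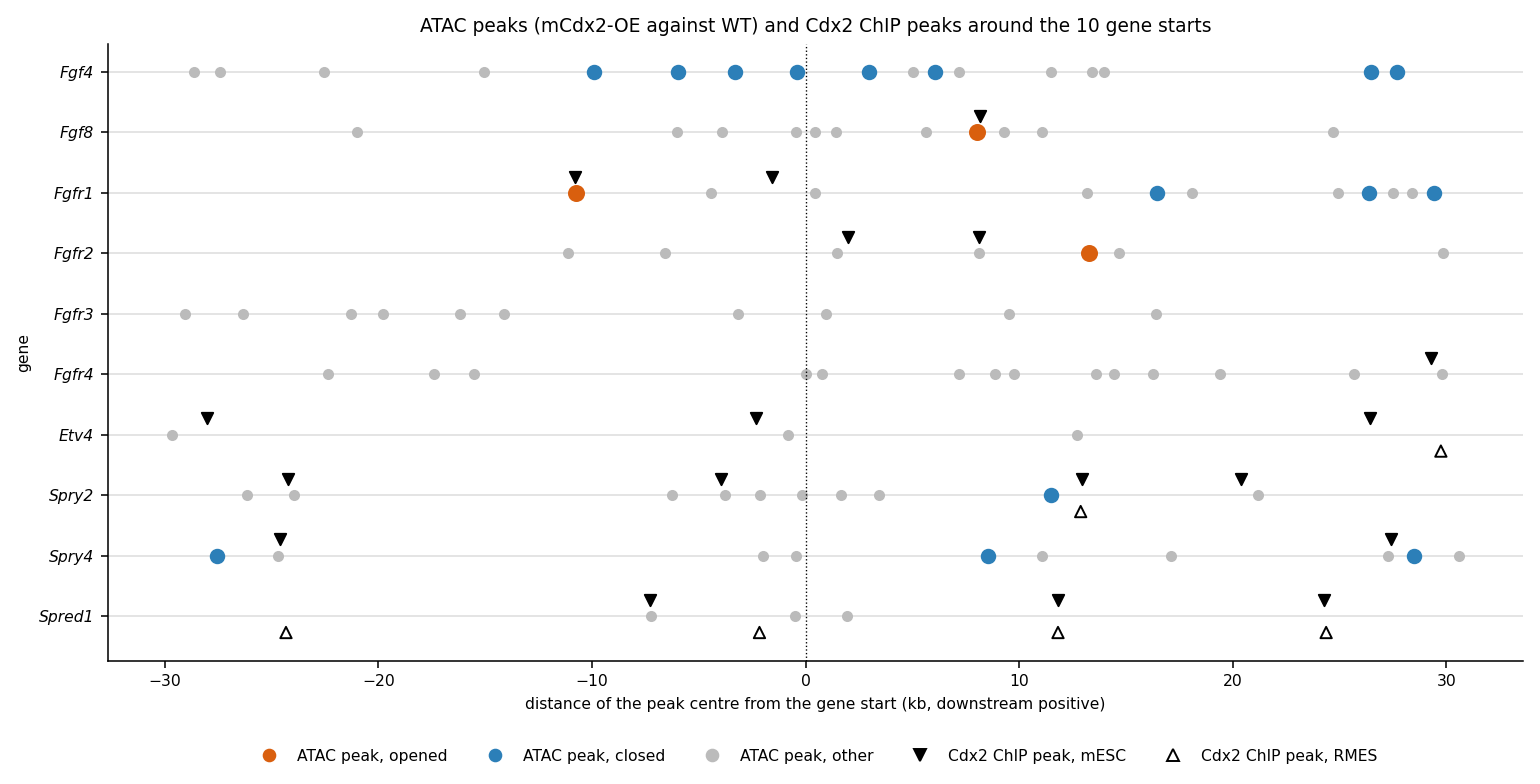
Peaks within 30 kb of the start of the 10 genes, by the distance of the peak centre from the start in kb (upstream negative). Circles are ATAC peaks of mESCs (orange opened, blue closed, grey other), filled triangles Cdx2 ChIP peaks of mESCs and open triangles those of RMES cells on the mouse genome. Closed peaks gather around Fgf4, which has no Cdx2 peak, and opened peaks at Fgfr1 and Fgf8 coincide with one.

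Cdx2 ChIP peaks of mESCs lay near 8 of the 10 members, against 75.7% of all genes, with a median of 2 peaks per gene for the members and for all genes alike. None lay near Fgf4 or Fgfr3. Spry2 had 4, Etv4 and Spred1 3 each, Fgfr1, Fgfr2 and Spry4 2 each, and Fgfr4 and Fgf8 1 each. The Spry2 peak -3948 bases from the start held 106 scaled reads with rCdx2 and 87.0 with mCdx2 (ratio 0.821, 0.611 to 1.1). Unscaled these were 100 and 92 reads, while the median over all peaks was 88 reads summed over both libraries. A further Spry2 peak, 12933 bases downstream of the start, held 73.2 and 73.8. The other member peaks were weaker.

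The proteins differed over 2-fold at 2 of the 18 peaks, against 0.912% of all mESC peaks. These were a peak -1577 bases from the Fgfr1 start, with 19.1 scaled reads for rCdx2 and 39.7 for mCdx2 (ratio 2.08, 1.17 to 3.84), and an Fgfr2 intron peak at chr7:130258614-130258799, with 24.4 and 7.57 (ratio 0.31, 0.12 to 0.718). Both were among the weaker peaks, with 1 library per protein. In RMES cells 6 Cdx2 peaks lay near 3 of the members on the mouse genome, 4 at Spred1 and 1 each at Spry2 and Etv4, where 64.6% of all genes had such a peak. None of the 6 differed over 2-fold between the proteins, against 2.08% of all RMES peaks. The RMES peak at Spry2 and those at chr2:117132778-117132993 and chr2:117145210-117145666 in Spred1 overlapped mESC peaks.

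The rest of the pathway was read from 69 other genes in 5 lists, chosen with earlier results of these data known. Of 9 targets of ERK signalling tested, 4 were lower with rCdx2 and none higher, and 5 were lower with mCdx2 and none higher. Of all genes, 15.4% were called lower and 19% higher with rCdx2, and 15% and 18.4% with mCdx2. The list median was -0.81 with rCdx2 and -1.04 with mCdx2 on the log2 scale (all genes -0.04 and -0.03). The 5 lower with mCdx2 included Etv1, a relative of Etv4, at -2.10 ± 0.165, the immediate early gene Ier2, at -1.35 ± 0.08, and the oncogene Myc, at -1.20 ± 0.134 (with rCdx2 at -0.81, not called). In RMES cells, by contrast, 6 of 11 targets were higher and 4 lower on the mouse allele and 6 of 9 higher and 2 lower on the rat allele, where 28.3% of all genes were higher on each and 16.1% and 14.2% lower. The list median there was 1.81 and 1.11 (all genes 0.08 and 0.07), above 0 and opposite in sign to mESCs. These medians are over the genes tested in each setting, which were not the same genes as in mESCs. Etv1 was at -3.02 and -3.53, and Ier2 also fell on the mouse allele, from a mean of 125 CPM to 56.3 and 48.9 CPM. Myc was -1.56 on the mouse allele and 1.08 on the rat allele, and -2.63 with change 3.

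Of 11 other inhibitors, 1 was higher and 2 lower with mCdx2, counts that do not stand out from the 18.4% of all genes called higher and 15% called lower. Dusp6, the phosphatase of ERK that FGF signalling induces, fell by 3.75 ± 0.231 with mCdx2 and 3.41 ± 0.224 with rCdx2 on the log2 scale, and by 3.12 and 2.39 on the mouse and rat alleles of RMES cells. Il17rd, also known as Sef, was at -1.78 ± 0.106 and Dusp9, another phosphatase, at 1.71 ± 0.0847 in mCdx2-OE. Against the same shares of all genes, 3 of 7 receptors and coreceptors tested were higher and none lower, with a median of 0.74, among them the decoy receptor Fgfrl1 (2.12 ± 0.129). Fgfbp1, a carrier of secreted FGF, was also higher in mCdx2-OE (2.13 ± 0.176), and in RMES cells it was at -3.92 on the mouse allele and 2.11 on the rat allele. Of 11 ligands tested 2 were higher and 2 lower, close to those shares, the latter being Fgf17 (-2.66 ± 0.296) and Fgf3 (-1.09 ± 0.303). Of the 18 signal relay genes 2 were higher and none lower, both below the shares of all genes, the former being the Ras activator Sos2 (2.10 ± 0.114) and the receptor adaptor Frs2 (1.58 ± 0.0885). All of these named genes had an adjusted p of at most 0.00435 in mCdx2-OE.

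Over the 20 mESC libraries, which share groups, depth and the position of WT, Spry2 followed Etv4 most closely of the members (Pearson's r = 0.96 of log2(CPM + 0.5)). Spry2 with Spry4 was at r = 0.90 and Spry4 with Etv4 at r = 0.83, whereas Fgf4 ran against Fgfr1 (r = -0.91) and Fgfr2 (r = -0.77). With Cdx2 itself r was -0.79 for Spry2, -0.76 for Spry4 and -0.73 for Etv4. The gene most alike over these libraries was Vim for Etv4 (r = 0.979), Lmnb2 for Spry2 (r = 0.981), Ptk7 for Spry4 (r = 0.975), Fbxo21 for Fgfr2 (r = 0.986), Smim10l2a for Fgfr1 (r = 0.954), Ankrd33b for Fgfr4 (r = 0.836) and Caprin2 for Fgf4 (r = 0.967). These values describe 10 groups of 2 libraries and carry no test.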

How the data were processed

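The members and lists were chosen with earlier results of these data known. The authors deposited raw read counts per gene (STAR 2.7.0d to mm10, featureCounts by strand on Ensembl genes without pseudogenes) and per peak (Bowtie2 2.3.4.3, duplicates removed, MACS2 on merged libraries). RMES reads had been assigned to mm10 or rn6 by edit distance, so reads alike in both genomes may be lost, and the first mESC table does not state whether incomplete pairs were counted as in the second. No ATAC read shift is named.

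Counts were tested with edgeR 4.0.16 in R 4.3.3 (TMM, filterByExpr, quasi-likelihood test, Benjamini-Hochberg over all genes), with DESeq2 1.42.0 as an alternative. Called genes had an adjusted p under 0.05 and, against WT, a 2-fold change. The script was tested on simulated data. The labels' replicate numbers were checked by correlating same-numbered deviations from group means: all 21 pairs of mutants (0.195 to 0.337) and mCdx2-OE with rCdx2-OE (0.57) were over 0.1, and 0 of 23 other pairs, so the numbers pair libraries within these sets only. CPM and RPKM used TMM-scaled totals. For peaks, each library's counts were brought to the average of both totals, 1 was added before taking ratios, and ATAC calls needed 40 scaled reads. All members are named, and of each other list at most the 3 largest changes with mCdx2 at a mean of at least 1 CPM. Gene starts were from RefSeq (GRCm38.p6) for 16978 of 19919 symbols. Python 3.11.15 was used. Rat ChIP peaks were not used here. The gene most like Spred1 is not reported here.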

Additional observations from a re-analysis of the deposited data

Results flagged for a closer look

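The responses that differed between conditions by a test of the difference itself were these. Between the rat and the mouse allele of RMES cells (interaction test of edgeR, rat minus mouse, log2), Fgfr3 differed by -2.0, Fgfr2 by 0.97, Fgf4 by 0.80, Spry4 by 0.77, Fgfr4 by 0.76, Spred1 by -0.40, Spry2 by 0.39, Etv4 by -0.30 and Fgfr1 by -0.24. Fgf4 is the one member whose fitted change was of opposite sign on the alleles with both past an adjusted p of 0.05, at -0.26 and 0.51. Between the mouse allele of RMES cells and mESCs (RMES minus mESC, log2), Fgfr3 differed by 1.70, Spry2 by -1.26 and Etv4 by -1.56. No group held the 4 libraries that a test for a single deviating library needs.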

How the results depend on the processing

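No count of called members moved by over 1.5 times and no member's call turned direction when any single library was left out, with DESeq2, another normalisation, no filter on low counts or the replicate block. The exceptions among counts were 43 mutant calls without the fold threshold and 8 for change 3 in the 7 mutants alone. Of 1771 member values under alternatives, 36 lost and 25 gained an adjusted p under 0.05. In 46 the sign turned, with neither value past an adjusted p of 0.05. A replicate block across all groups left the counts of called members at 5 (mCdx2), 6 (rCdx2), 19 (mutants), 0 (mCdx2 against rCdx2), 9 (any construct) and 0, 0 and 5 (changes 1 to 3). The replicate block within the paired sets, chosen after the data were seen, gave 5, 5, 21, 0, 9, 0, 0 and 5, and 8 for change 3 in the 7 mutants alone. It changed no member's call other than those of Fgfr3 in rCdx2-OE, R3 and R13.

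Peak counts moved by less than 1.5 times with GENCODE gene starts, an alternative chosen, like the 7 mutants alone, after the data were seen, and by more with other limits. Opened ATAC peaks numbered 15 without scaling, 7 with no read minimum, 1 over 4-fold, 1 within 10 kb and 10 within 100 kb. Closed peaks numbered 6, unscaled, 1 over 4-fold, 7 within 10 kb and 33 within 100 kb. Cdx2 peaks of mESCs numbered 3 with at least 100 reads, 7 within 10 kb and 50 within 100 kb, and those of RMES cells 0, 1 and 27. With an overlap of at least 50%, 3 ATAC peaks shared a Cdx2 peak. Low counts limit Fgfr3, Fgfr4, Fgf8 and induced Spry4.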
